A study of Mus musculus with 16 samples.

Results

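The 10 genes described here build or switch on motile cilia, and they were followed in the cerebral cortex of newborn and 7-day-old mice. They are Foxj1, Ak7, Rsph1, Dynlrb2, Tekt1, Spag6, Ccdc39, Mns1, Enkur and Tppp3. Every probe set of the array that was annotated to only one of these symbols was used, which gave 12 probe sets for 10 of the 18193 genes measured, and each gene was represented by its probe set with the highest mean over all 16 arrays. The genes were chosen by their measured genotype differences at P0 and P7 in these same arrays, so these differences are given as a description, and any count of calls among the members restates that choice. Of the 10 genes, 8 lay above the level of 5.15 (log2 signal) required for testing, and Mns1 and Spag6 lay below it.

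Cerebral cortices were taken from mice of 2 genotypes, Dyrk1a+/+ (wild type) and Dyrk1a+/- (heterozygous), at postnatal day 0 (P0) or postnatal day 7 (P7), and their total RNA was hybridised to Affymetrix mouse expression arrays. Dyrk1a encodes a protein kinase whose gene dosage affects brain growth. There were 4 groups of 4 mice with 1 array each, and the labels number the arrays of a group as biological replicas 1 to 4. The sources used here do not give the strain, the sex of the mice or the way the Dyrk1a allele was inactivated. A code in the labels ends in 1 for replicates 1 and 2 and in 2 for replicates 3 and 4 of every group, and both array sets therefore hold 2 arrays of each group.

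A motile cilium is a beating, microtubule-based projection. Its core, the axoneme, carries doublet microtubules with dynein motor arms, radial spokes and a central pair of microtubules, whereas most neurons and glia carry a single immotile primary cilium. FOXJ1, a forkhead transcription factor, together with RFX factors, which bind the X-box sequence, switches on the genes of the motile axoneme. In the brain such cilia belong to the ependymal cells that line the ventricles and to the choroid plexus epithelium, and ependymal cells mature from radial glia during the first weeks after birth.

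Because the genes are known as a set with shared regulators, the promoters of the members were searched for these factors' motifs. RefSeq promoters (GRCm38.p6, from 250 bases before to 50 bases after the start) were at hand for 7 of the 10 genes, which are all but Foxj1, Rsph1 and Tppp3. The X-box half-site GTTGCC, read on both strands (GGCAAC on the other), was found in 5 of these 7 genes, namely Dynlrb2, Tekt1, Spag6, Mns1 and Enkur. It was found in 14.7% of the 14452 genes measured on the array that had a promoter, in 39 of 90 other motile cilia genes (43.3%) and in 15 of 28 genes of primary cilia and intraflagellar transport (53.6%). A longer X-box, in which a second half-site follows after 4 free bases, was found as GTTGCCTAGCAAC in the Dynlrb2 promoter, where it overlaps the single half-site. It was found in 11 of 90 other motile cilia genes (12.2%), in 2 of 28 primary cilia genes (7.14%) and in 1.29% of the 14452 measured genes. The form with 5 free bases was found in Enkur across the start site. It was found in 14 of 90 other motile cilia genes (15.6%), in 5 of 28 primary cilia genes (17.9%) and in 1.85% of the 14452 measured genes. The forkhead motif TGTTTAC, searched on both strands, was found in Ak7. It was found in 5 of 90 other motile cilia genes (5.56%), in 0 of 28 primary cilia genes and in 3.4% of the 14452 measured genes. The motifs were settled after several spellings had been tried, and a match is a description of the sequence, not evidence of binding. The 150 bases before the start are shown for 4 genes, 5′ to 3′ on the gene's strand. Matches that lie wholly before the start are in capitals. The Enkur match with 5 free bases runs past the start, so it is cut off here and left in lower case.
Ak7, forkhead motif (chr12:105705832-105705981, plus strand): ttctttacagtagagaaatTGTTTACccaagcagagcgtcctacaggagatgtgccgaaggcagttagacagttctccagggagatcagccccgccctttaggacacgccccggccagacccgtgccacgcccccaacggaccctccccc
Dynlrb2, full X-box (chr8:116504865-116505014, plus strand): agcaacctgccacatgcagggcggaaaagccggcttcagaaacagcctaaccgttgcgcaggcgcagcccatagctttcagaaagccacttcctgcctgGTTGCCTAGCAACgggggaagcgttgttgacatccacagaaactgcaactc
Tekt1, X-box half-site on each strand (chr11:72361883-72362032, minus strand): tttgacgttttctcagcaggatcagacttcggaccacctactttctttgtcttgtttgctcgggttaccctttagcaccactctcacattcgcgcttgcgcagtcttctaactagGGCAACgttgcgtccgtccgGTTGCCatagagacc
Enkur, X-box half-site (chr2:21205366-21205515, minus strand): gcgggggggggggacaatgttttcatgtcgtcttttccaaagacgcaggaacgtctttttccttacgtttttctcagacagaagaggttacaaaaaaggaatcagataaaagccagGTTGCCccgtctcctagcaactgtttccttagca

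The array medians lay between 5.84 and 5.86, and arrays of one group correlated at r = 0.979 to 0.995 over the 12801 genes tested. Markers of cortical excitatory neurons had a mean log2 signal of 8.85 to 9.33 on every array, and choroid plexus markers differed widely at P0, with Ttr, the main choroid plexus transcript, between 6.16 and 14.12. The main Dyrk1a probe set read 7.83 to 8.18 in wild-type and 8.05 to 8.30 in heterozygous cortex at P0, and 7.57 to 7.70 against 7.60 to 7.79 at P7. Its genotype differences of 0.19 and 0.05 did not pass (limma, adjusted p = 0.379 and 0.857). The other 2 Dyrk1a probe sets, with mean signals of 6.44 and 4.94, differed by 0.47 and 0.12 at P0 and by -0.48 and -0.06 at P7, so the probe sets disagree in sign at P7. The sources used here do not say whether any of them lies in the part of the gene that the mutation removes, so they check nothing about the labels. The description code separated the arrays on many genes: 39.7% of the 12801 genes tested differed between replicates 3 and 4 and replicates 1 and 2.

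Foxj1 was lower in heterozygous than in wild-type cortex at P0 and higher at P7. At P0 its log2 signal was 5.73, 5.68, 5.84 and 5.86 on wild-type arrays 1 to 4 and 5.47, 5.47, 5.40 and 5.55 on heterozygous arrays 1 to 4. At P7 the wild-type arrays read 5.67, 5.79, 5.61 and 5.73, and the heterozygous arrays 5.95, 6.13, 5.98 and 5.97. The groups did not overlap at either age. The difference was -0.31 (SE 0.08) on the log2 scale at P0, or 1.24-fold lower, and 0.30 (SE 0.08) at P7, or 1.23-fold higher.

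Ak7, the adenylate kinase of motile cilia, moved in the same way. The wild-type arrays read 7.57, 7.37, 7.01 and 7.40 at P0, against 6.66, 7.03, 6.82 and 6.41 in heterozygotes. At P7 they read 7.68, 7.68, 7.25 and 7.39, against 7.86, 7.84, 7.79 and 7.84. At P0 only wild-type array 3, at 7.01, and heterozygous array 2, at 7.03, overlapped, and at P7 all heterozygous arrays lay above all wild-type ones. The log2 difference was -0.61 (SE 0.14) at P0, 1.52-fold lower, and 0.33 (SE 0.14) at P7, 1.26-fold higher.

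Rsph1 encodes a protein of the radial spoke head. Its wild-type signals at P0 were 6.14, 6.34, 6.05 and 6.18 and its heterozygous signals 5.93, 5.69, 5.78 and 5.55, with no overlap. At P7 the wild-type arrays read 6.74, 6.53, 6.35 and 6.23 and the heterozygous ones 6.52, 6.38, 6.32 and 6.40, and here the heterozygous values lay inside the wild-type range. The difference was -0.44 (SE 0.11) at P0 and -0.06 (SE 0.11) at P7.

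Tppp3, a tubulin-binding protein of the tubulin polymerization-promoting family, had the largest P0 difference of the 10 genes. The wild-type arrays read 7.58, 7.15, 6.87 and 7.00 at P0 and the heterozygous arrays 6.87, 6.66, 6.32 and 5.92, so that the groups met at 6.87. At P7 they read 8.65, 8.44, 8.20 and 7.87 against 8.25, 8.29, 7.97 and 7.77, and overlapped widely. The difference was -0.71 (SE 0.21) at P0, 1.63-fold lower, and -0.22 (SE 0.21) at P7. In both genotypes and at both ages arrays 1 and 2 were above arrays 3 and 4.

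Dynlrb2, a light chain of the dynein motor that moves along cilia, followed Foxj1 and Ak7 in direction but with a wide spread. Its P0 signals were 5.87, 5.77, 4.91 and 5.08 in wild type and 5.11, 5.23, 5.21 and 4.56 in heterozygotes, and the 2 high wild-type arrays were replicates 1 and 2. Its P7 signals were 5.42, 5.68, 5.20 and 5.0 against 5.72, 5.78, 5.58 and 5.51. The groups overlapped at both ages, and the difference was -0.38 (SE 0.21) at P0 and 0.32 (SE 0.21) at P7.

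Enkur and Mns1 encode proteins of the inside of the doublet microtubules, and Ccdc39 a coiled-coil protein that sets the spacing of dynein arms and spokes along them. Enkur ranged from 5.71 to 6.13 in wild-type and from 5.40 to 6.05 in heterozygous cortex at P0, and from 5.74 to 6.33 and 5.97 to 6.43 at P7, with differences of -0.31 (SE 0.16) and 0.13 (SE 0.16). The main Ccdc39 probe set ranged from 7.15 to 7.68 and from 6.90 to 7.46 at P0, and from 7.64 to 7.94 and 7.67 to 7.99 at P7, with differences of -0.20 (SE 0.13) and 0.01 (SE 0.13). The groups of both genes overlapped at both ages. The main Ccdc39 probe set can also match related transcripts by its name, and the other 2 probe sets of the gene were dim, with means of 3.66 and 3.52. Mns1, below the level required for testing, had the opposite sign at P0 (0.19, SE 0.11) and 0.04 (SE 0.11) at P7.

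Tekt1, a filament protein of the doublet wall, and Spag6, a protein of the central pair, showed little difference. Tekt1 read 5.61, 5.65, 5.55 and 5.67 at P0 in wild type and 5.47, 5.89, 5.40 and 5.43 in heterozygotes, where 3 arrays lay below the wild-type range and array 2 above it. The Tekt1 difference was -0.07 (SE 0.12) at P0 and 0.02 (SE 0.12) at P7. Spag6 stayed between 2.59 and 3.09 on all 16 arrays, near the lowest signal of the table (2.24). The main probe set of its near copy Spag6l lay above the level required for testing, so these probe sets did not read alike. Whether either also matches the other gene was not checked.

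**Figure D1:**
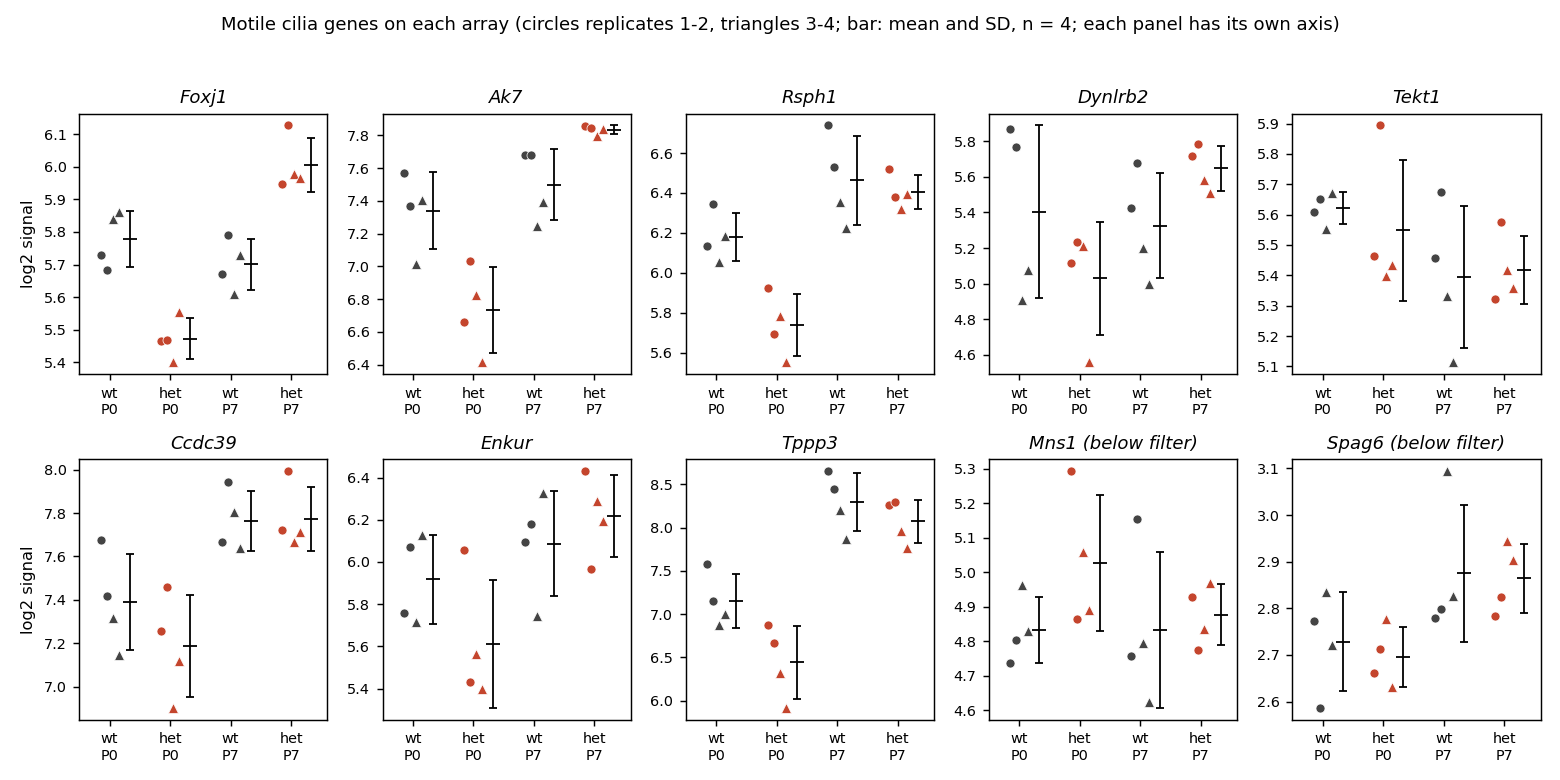
Log2 signal of the 10 genes on each array, by genotype (wt, wild type; het, heterozygous) and age; circles are replicates 1 and 2, triangles replicates 3 and 4, and bars give the mean and SD of 4 arrays, each panel on its own axis. Foxj1 is separated by genotype at both ages in opposite directions, Ak7 is at 7.79 to 7.86 in heterozygotes at P7, and Mns1 and Spag6 are below the level required for testing.

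Over the 10 genes, 9 had a negative difference at P0 and 7 a positive one at P7, with medians of -0.31 and 0.03. Over all 18193 genes, 59.1% were negative at P0 and 48.6% positive at P7, and the medians were -0.03 and -0.0057. Because these contrasts chose the members, the counts that follow restate the choice and are printed only beside their background. An unadjusted p under 0.05 (limma) was found for 4 members at P0 and 2 at P7, against 1640 and 1584 of the 12801 genes tested. The threshold for a call was an adjusted p of 0.05 (limma, adjusted over the 12801 genes tested). At P0 0 of 8 members passed, where 0.687% of the genes tested did, and at P7 0 of 8, where 0.219% did. With the replicate number as a block in the fit, the counts were 4 of 8 at P0 (Tppp3, Ak7, Rsph1 and Foxj1; 3.02% of all genes tested) and 0 of 8 at P7 (0.789%). With the array set as a block they were the same 4 genes at P0 (3.59%) and Foxj1 at P7 (1.92%). Members whose groups did not overlap were Foxj1 and Rsph1 among those lower at P0, against 4.85% of the genes tested, and Foxj1 and Ak7 among those higher at P7, against 2.2%. Foxj1 was 1 of 6 genes that did both (0.0469%), beside Tuba1a, Plin2, Minar1, Mta3 and Tcaf2.

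The P0 difference minus the P7 difference was negative in 9 of the 10 genes, with a median of -0.41 against -0.02 over all genes measured. It was -0.94 (SE 0.19) for Ak7, -0.70 (SE 0.29) for Dynlrb2, -0.61 (SE 0.11) for Foxj1, -0.49 (SE 0.30) for Tppp3, -0.44 (SE 0.22) for Enkur and -0.38 (SE 0.16) for Rsph1. For Ccdc39, Tekt1 and Spag6 it was -0.21, -0.10 and -0.02, and Mns1 had a positive value of 0.15 (SE 0.16). No gene on the array, member or not, passed the test of this difference (0% of 12801, limma; 995 genes at an unadjusted p under 0.05), with or without the replicate block. In bulk tissue, fewer cells of a type and less RNA per cell cannot be told apart.

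**Figure D2:**
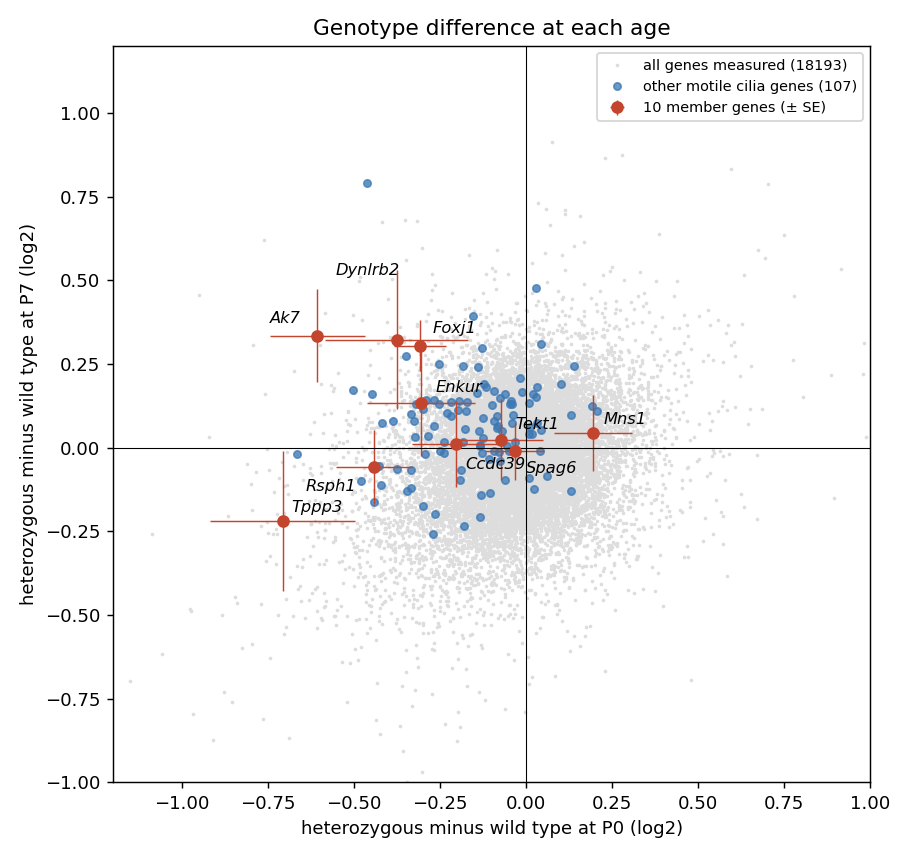
Heterozygous minus wild-type log2 difference at P0 (horizontal axis) and P7 (vertical axis) for the 10 genes (red, with SE), 107 other motile cilia genes (blue) and all 18193 genes measured (grey; 12 lie outside the axes). Ak7, Dynlrb2, Foxj1 and Enkur lie left of 0 and above 0, and Tppp3 and Rsph1 left of 0 and below it.

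The same comparison was made within each array set, with 2 arrays against 2. At P0 Foxj1 differed by -0.24 in replicates 1 and 2 and by -0.37 in replicates 3 and 4, Ak7 by -0.62 and -0.59, Rsph1 by -0.43 and -0.45, and Tppp3 by -0.60 and -0.82. These 4 genes were thus lower in both sets by similar amounts, whereas the Dynlrb2 difference was -0.65 in replicates 1 and 2 and -0.11 in replicates 3 and 4. Tekt1 (0.05 and -0.20) and Spag6 (0.0077 and -0.07) had opposite signs in the array sets at P0, and Mns1 was positive in both (0.31 and 0.08). At P7 Foxj1 differed by 0.31 and 0.30, Ak7 by 0.17 and 0.50, Dynlrb2 by 0.20 and 0.45 and Enkur by 0.06 and 0.20. Tppp3 was negative in both sets at P7 (-0.27 and -0.17). Rsph1 (-0.19 and 0.07), Tekt1 (-0.12 and 0.16), Mns1 (-0.10 and 0.19), Ccdc39 (0.05 and -0.03) and Spag6 (0.01 and -0.04) had opposite signs in the array sets at P7. The median over the 10 genes was -0.21 and -0.30 at P0 and 0.03 and 0.18 at P7, and the median difference between the ages was -0.24 in replicates 1 and 2 and -0.54 in replicates 3 and 4.

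**Figure D3:**
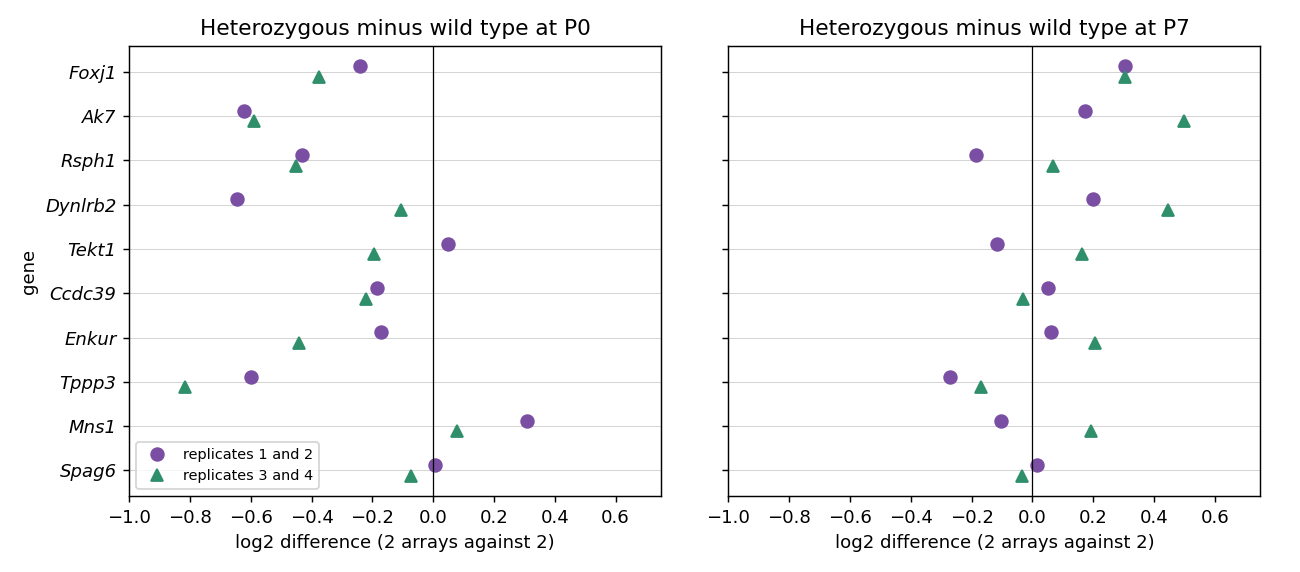
Heterozygous minus wild-type log2 difference of each gene at P0 (left) and P7 (right), computed within replicates 1 and 2 (circles) and within replicates 3 and 4 (triangles), 2 arrays against 2. Foxj1, Ak7, Rsph1, Tppp3, Dynlrb2, Ccdc39 and Enkur are left of 0 at P0 in both sets. At P7 Foxj1, Ak7, Dynlrb2 and Enkur are right of 0 in both sets and Tppp3 left of 0 in both.

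The first postnatal week was compared as the mean of both genotypes at P7 minus that at P0, a contrast independent of the genotype differences in this balanced design. Tppp3 rose most, by 1.38 (SE 0.15; 2.61-fold; limma, adjusted p = 5.80e-07). Ak7 rose by 0.63 (SE 0.10; adjusted p = 3.24e-05), Ccdc39 by 0.48 (SE 0.09; 0.00025), Rsph1 by 0.47 (SE 0.08; 6.33e-05), Enkur by 0.39 (SE 0.11; 0.00681) and Foxj1 by 0.23 (SE 0.05; 0.00161). These 6 of 8 members tested passed as higher at P7, in a comparison in which 58.6% of all genes tested passed, 30.8% as higher and 27.8% as lower. Dynlrb2 (0.27, SE 0.15, limma, adjusted p = 0.127) and Tekt1 (-0.18, SE 0.09, adjusted p = 0.0854) did not pass, but both did in the fit with the replicate block (limma, adjusted p = 0.0219 and 0.0222). Within replicates 3 and 4 alone Foxj1 rose by 0.16 and did not pass (limma, adjusted p = 0.121), and within replicates 1 and 2 alone Enkur had 0.34 and did not pass (limma, adjusted p = 0.0906).

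Split by genotype, the Foxj1 difference between the ages was -0.08 in wild-type and 0.53 in heterozygous cortex, and that of Ak7 0.16 and 1.10. Dynlrb2 had -0.08 and 0.62, Enkur 0.17 and 0.61, Rsph1 0.28 and 0.67, Ccdc39 0.38 and 0.59, and Tppp3 1.14 and 1.63. In each of these 7 genes the heterozygous value was the larger, which restates the change of the genotype difference between the ages and adds nothing to it.

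**Figure D4:**
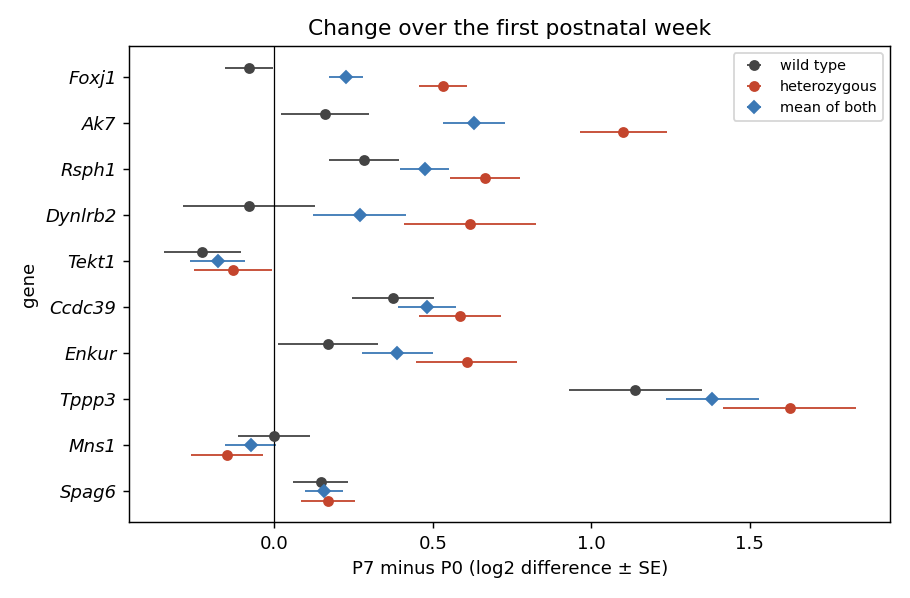
P7 minus P0 log2 difference with SE for the 10 genes in wild-type cortex (black), heterozygous cortex (red) and as the mean of both (blue). Tppp3 has the largest values, Foxj1 and Dynlrb2 are near -0.08 in wild type, and Tekt1 is left of 0 in all 3.

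The array sets also differed in member signal. Replicates 3 and 4 were lower than replicates 1 and 2 by 0.50 for Tppp3 (limma, adjusted p = 0.000229), 0.44 for Dynlrb2 (0.00221), 0.23 for Ccdc39 (0.0169), 0.22 for Ak7 (0.0365) and 0.17 for Rsph1 (0.0377), with the 4 groups in the model. These 5 of 8 members passed as lower, where 21.7% of all genes tested did. Foxj1 did not follow them, with a difference of 0.0068 (SE 0.05). Within groups, Tppp3, Dynlrb2 and Ak7 varied with the mean of the other members tested (r = 0.83, 0.78 and 0.76 over 16 arrays), while Foxj1 had r = -0.18 and Enkur r = 0.08. The 10 genes whose deviations from the group means were most like those of the members were Rnf25, Med18, Hdac4, Ly6h, Tle5, Sox8, Lin37, C1qa, Itm2c and Tmem255a (r = 0.94 to 0.91 over 16 arrays), and each of them was lower in replicates 3 and 4, by 0.20 (Itm2c) to 1.13 (Tmem255a). The genes whose level was most like that of Foxj1 over the 16 arrays were Adgrg2 (r = 0.89), Sorcs1 (0.88), Mapre2, Mta3, Ceacam2, Il1b, Tmem109, Lrrc3, Dnah11 and Stom (0.83). Among them only Dnah11, an axonemal dynein heavy chain, is in a gene list used here. These levels include the group means, and so the genotype differences by which Foxj1 was chosen. The ranking by level therefore restates that choice in part.

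Other motile cilia genes, listed from general knowledge in 6 groups, were taken for comparison: 107 were measured and 52 tested. These lists were written with earlier results of these data known. At P0 86 of the 107 had a negative difference (80.4%; all genes, 59.1%), with a median of -0.13, and at P7 74 had a positive one (69.2%; all genes, 48.6%), with a median of 0.07. The P0 difference minus the P7 difference was negative in 94 (87.9%; all genes, 54.8%), with a median of -0.20. With limma 0 of the 52 passed at P0, at P7 or for the difference, against 0.687%, 0.219% and 0% of all genes. An unadjusted p under 0.05 was found for 15, 8 and 11 of the 52, against 1640, 1584 and 995 of the 12801 genes tested. The replicate block gave 3 of the 52 (3.02% of all genes tested) as lower at P0, namely Fank1, Lrrc23 and Drc3. Groups without overlap were found for 10 of the 52 below wild type at P0 (4.85% of genes tested), for 6 above at P7 (2.2%) and for 0 of the 107 in both.

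The regulators of multiciliation, the programme that makes many cilia per cell, included 13 measured genes, of which 8 were negative at P0 and 12 positive at P7. The X-box factors Rfx3 (0.03 at P0, 0.15 at P7) and Rfx1 (0.03, 0.18) had positive differences at both ages, while Rfx4 had -0.09 and -0.01 and Rfx2, below the level required for testing, -0.08 and 0.06. The cell cycle factors E2f4 (-0.22, 0.09) and E2f5 (-0.12, 0.09), which act with the multiciliation programme, and Foxn4 (-0.13, 0.03) were negative at P0 and positive at P7, as was the dim Cdc20b (-0.04, 0.10). Trp73 (0.14, 0.24) and the centriole gene Cep152 (0.21, 0.11) were positive at both. Myb, a transcription factor early in multiciliation, had 0.03 (SE 0.13) at P0 and 0.48 (SE 0.13) at P7, and Deup1, which helps to multiply centrioles, had -0.45 (SE 0.10) and 0.16 (SE 0.10) at a level below that required for testing. Ccno, a cyclin-like factor of the same programme, had -0.20 and 0.11. No regulator passed at either age in the fit without a block (limma). An unadjusted p under 0.05 was found for 0 of 8 at P0 and 3 of 8 at P7 (all genes, 1640 and 1584 of 12801). Myb passed as higher at P7 with the array set as a block (limma, adjusted p = 0.0218).

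All 11 measured genes of the ruler and the nexin-dynein regulatory complex, which links neighbouring doublets, were negative at P0 (median -0.13). Among the brightest, Drc3 read 6.23, 6.40, 6.61 and 6.65 on the wild-type arrays and 5.88, 6.0, 6.20 and 6.09 on the heterozygous arrays at P0, with no overlap, a difference of -0.43 (SE 0.15). Gas8, another subunit, had -0.16 (SE 0.15) at P0 and 0.39 (SE 0.15) at P7, and passed at P7 only with the array set as a block (limma, adjusted p = 0.0378). Drc1 had -0.42 (SE 0.17) and -0.11 (SE 0.17). Of the 37 measured genes of microtubule inner and other axonemal proteins, 31 were negative at P0 (median -0.17). Lrrc23, a radial spoke protein placed in this list, read 7.07, 6.84, 6.74 and 6.85 in wild type and 6.30, 6.49, 6.54 and 6.15 in heterozygotes at P0, without overlap (-0.50, SE 0.12), and had 0.17 (SE 0.12) at P7. The brightest gene of that list, Nme7, had the opposite signs, 0.13 and -0.13.

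The radial spoke and central pair list had 13 of 17 genes negative at P0 and 13 positive at P7. Its brightest genes, Rsph9 and Spef1, had the same sign at both ages, with -0.27 and -0.26 and with 0.02 and 0.04. Cfap54, of the central pair, had the widest swing of the brightest genes, -0.46 (SE 0.26) at P0 and 0.79 (SE 0.26) at P7, but its wild-type arrays at P7 spread from 6.94 to 8.21. The dynein arm list had 15 of 18 negative at P0 (median -0.16), with Dnah11 at -0.22 (SE 0.08) and 0.14 (SE 0.08), Dnal1 at -0.13 and -0.21 and Wdr78 at -0.19 and -0.07. The list of dynein arm assembly factors had 8 of 11 (median -0.06), with Dnaaf2 at 0.04 and 0.31, Dnaaf5 at -0.04 and 0.07 and Tbc1d31 at 0.10 and 0.19. Over the first postnatal week 24 of the 52 tested genes passed as higher (30.8% of all genes tested) and 8 as lower (27.8% of all genes tested). Fank1 (0.55, SE 0.08, limma, adjusted p = 2.55e-05) and Drc3 (0.55, SE 0.11, adjusted p = 0.000351) rose, and Myb fell by 0.75 (SE 0.09, limma, adjusted p = 3.75e-06).

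Genes of the primary cilium and of intraflagellar transport, which all ciliated cells use, gave a narrower picture. Their mean log2 signal was 7.87 to 7.89 in wild-type and 7.82 to 7.86 in heterozygous cortex at P0. At P7 it was 7.94 to 7.98 against 7.91 to 7.93. The heterozygous values lay below the wild-type ones at both ages, without overlap. Of 33 measured, 22 were negative at P0 (median -0.07) and 20 at P7 (median -0.05), and 0 of 32 tested passed at either age (limma). An unadjusted p under 0.05 was found for 1 at P0 and 5 at P7 (all genes, 1640 and 1584 of 12801). The brightest were Arl3 (-0.18 and 0.02), Kif3a, a motor subunit of intraflagellar transport (-0.13 and 0.03), and Ift81 (-0.09 and 0.12). The 107 motile cilia genes had means of 5.30 to 5.37 against 5.15 to 5.23 at P0, also without overlap. At P7 they had 5.33 to 5.41 against 5.40 to 5.47, ranges that overlapped with the heterozygous one higher. Both lists use the same arrays, and the difference between the lists was not tested.

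Of 9 measured genes listed as paralogs of the members, 0 were negative at P0 and positive at P7. Over all genes the share was 27.3%, and 58 of the 107 other motile cilia genes had these signs (54.2%). That 6 of the 10 members did restates their choice. Tppp, the relative of Tppp3 found in oligodendrocytes, had -0.42 (SE 0.10) and -0.38 (SE 0.10), Dynlrb1 -0.12 and -0.11, and Spag6l -0.30 (SE 0.11) and -0.17 (SE 0.11). Ak1 (-0.21, -0.18), Ak4 (-0.03, -0.35) and Rsph9 were negative at both ages, and Foxj2 (0.07, 0.26) and Foxj3 (0.11, 0.04) positive at both. Rsph9 and Spag6l are also in the radial spoke and central pair list, so the paralog list is not free of motile cilia genes. The adenylate kinase Ak5 was lower at P0, by -0.56 (SE 0.12; limma, adjusted p = 0.038), the only gene of the cilia and paralog lists that passed in a genotype contrast, and 12 of 16 fits that each left out 1 array lost that call (adjusted p = 0.0336 to 0.119).

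Markers of cells that carry motile cilia, and of other cells that the dissection could hold, were read on the same arrays. The 13 ependymal markers that are not axonemal genes had mean signals of 6.66 to 6.77 in wild-type and 6.38 to 6.58 in heterozygous cortex at P0, and 6.89 to 7.08 against 6.92 to 7.06 at P7. Of the 13, 11 were negative at P0 (median -0.21) and 0 of 10 tested passed (limma). At P0 5 of the 10 had an unadjusted p under 0.05 (all genes, 1640 of 12801). Hdc, named after its values were seen, read 5.75, 5.71, 5.70 and 5.76 on the wild-type P0 arrays and 5.39, 4.78, 5.40 and 4.51 on the heterozygous ones, without overlap (-0.71, SE 0.16). Tmem212, also named after its values were seen, had -0.53 (SE 0.14). At P7 these genes had -0.04 and -0.19. Of the 13, 5 were positive at P7, and 3 went from negative at P0 to positive at P7 (23.1%; all genes, 27.3%), namely Pltp (-0.21 and 0.22), Ccdc153 (-0.51 and 0.07) and Nek5 (-0.07 and 0.26). Cd24a (0.06 and 0.21) and Prom1 (0.30 and 0.13) were positive at both ages. The ependymal list moved with the members at P0, and its part in the result was not tested.

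The 18 choroid plexus markers, by contrast, had mean signals of 5.93 to 6.93 in wild-type and 5.90 to 7.09 in heterozygous cortex at P0 and a median difference of 0.04. Ttr was higher in heterozygotes on 3 of the 4 numbered array pairs at P0, at 12.98, 13.39, 14.12 and 8.87 against 12.11, 13.87, 8.72 and 6.16. Within replicates 1 and 2 the choroid plexus median at P0 was -0.26 and that of the members -0.21, and within replicates 3 and 4 it was 0.29 and that of the members -0.30. The part of choroid plexus in the result was not tested. At P7 16 of the 18 choroid plexus markers were negative (median -0.15).

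**Figure D5:**
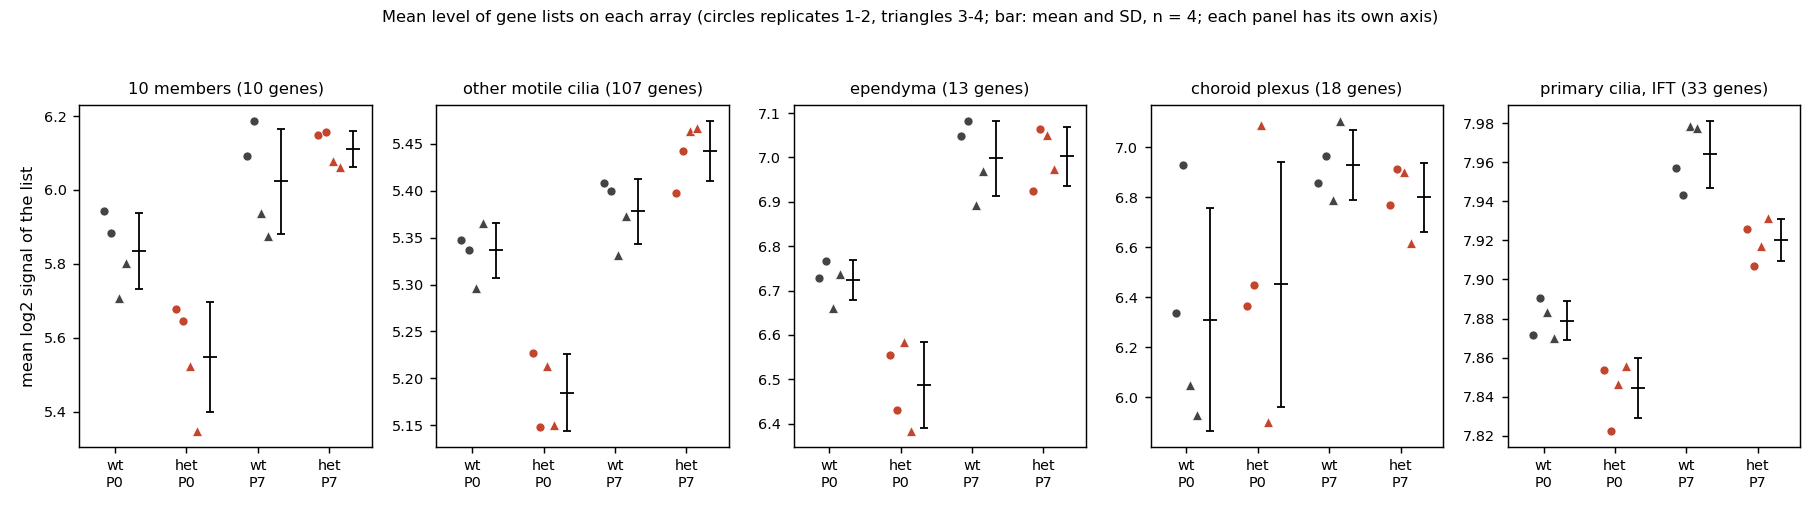
Mean log2 signal per array of the 10 genes, 107 other motile cilia genes, 13 ependymal markers, 18 choroid plexus markers and 33 genes of primary cilia and intraflagellar transport (IFT); circles are replicates 1 and 2, triangles replicates 3 and 4, and bars give the mean and SD of 4 arrays. Motile cilia genes are lower in heterozygotes at P0 and level or higher at P7, and the choroid plexus markers spread from 5.90 to 7.09 in heterozygotes at P0.

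Other tissue markers also differed by genotype on these arrays. All 9 astrocyte markers were negative at P0 (median -0.22; mean signal 7.94 to 8.25 against 7.69 to 7.80), and 7 of 9 at P7, with Aqp4 past the threshold at P0. All 8 striatal markers were negative at both ages (medians -0.39 and -0.49), with Tac1 and Gpr6 past the threshold at P0 and Tac1 and Penk at P7. The part of astrocytes and of striatal tissue in the P0 result was not tested. Cortical neuron markers went the other way at P0, and those of radial glia and progenitors were split. All 7 cortical excitatory neuron markers were positive at P0 (median 0.12) and 4 at P7, with Tbr1, a deep-layer transcription factor, higher at P0 (0.57, SE 0.12; limma, adjusted p = 0.0285). Of 12 markers of radial glia and progenitors 7 were positive and 5 negative at P0 (median 0.15), and 10 were positive at P7 (median 0.10). Mki67, a proliferation marker, was higher at P0 (0.60, SE 0.12, limma, adjusted p = 0.0318). The 5 negative genes, named after their values were seen, were Hes1, Hes5, Slc1a3, Nes and Fabp7. Within replicates 1 and 2 and within replicates 3 and 4 Hes1 had -0.22 and -0.23, Hes5 -0.15 and -0.19, and Slc1a3 -0.15 and -0.11. Nes had -0.02 and -0.18, and Fabp7 -0.00054 and -0.12. The 7 positive genes were positive in both sets. Neurog2 had 0.50 and 0.79, Top2a 0.53 and 0.69, Mki67 0.65 and 0.54, and Eomes 0.42 and 0.77. Pax6 had 0.37 and 0.59, Sox2 0.19 and 0.11, and Vim 0.10 and 0.18. The part of these lists in the result was not tested either. Hippocampal markers (5 of 10 negative at P0) and those of meninges and vessels (5 of 10) had no gene past the threshold (limma). At an unadjusted p under 0.05 they had 0 and 1 at P0 and 2 and 0 at P7 (all genes, 1640 at P0 and 1584 at P7 of 12801). Of the calls named for these marker lists, that of Tac1 at P0 held in all 16 fits that each left out 1 array. Each of the other calls was lost in 2 (Penk) to 13 (Tac1 at P7) of these fits.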

How the data were processed

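The authors deposited log2 signals of probe sets, normalized and summarised by a method that the sources used here do not give. Per the labels' protocols, 100 ng of total RNA per sample was labelled in 2 cycles. Of 45037 probe sets, 34945 were annotated to 1 gene, 932 to several and 9160 to none, and 34741 were matched to a current symbol by gene ID. Each gene kept its probe set with the highest mean, and genes above the 40th percentile of the probe set means (5.15) were tested. limma (version 3.58.1, R 4.3.3) was fitted to 4 group means over 16 arrays (12 residual and 4.59 prior degrees of freedom), with Benjamini-Hochberg adjustment over 12801 genes. The number of arrays limits the precision. The scripts were tested on simulated data. The members, lists and motifs were chosen with earlier results of these data known; 238 of 266 list entries were matched.

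Besides the members, genes were named from the 3 brightest of each list, those of a list past an adjusted p of 0.05 in a genotype contrast, regulators, paralogs and the 10 genes most like the members or Foxj1; the tissue marker lists are given mainly by their counts, and exceptions are marked. Deviations from group means correlated between same-numbered wild-type and heterozygous arrays at r = 0.115 to 0.599, above 0.1 in every pair, so the replicate number was treated as a pairing; these correlations do not tell it apart from the array set. The alternatives were quantile normalization, median centring, other filters and probe set choices, an intensity trend, blocks, single array sets and leaving out each array.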

Additional observations from a re-analysis of the deposited data

Results flagged for a closer look

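In groups of 4 arrays, a single array stood apart from the others, by Dixon's criterion, in 3 of 52 groups examined, where chance gives about 1 in 20. Tekt1 read 5.89 on heterozygous array 2 at P0, and the other 3 arrays of the group lay at 5.40 to 5.47. Without that array the Tekt1 difference at P0 was -0.19 in place of -0.07. Spag6 read 3.09 on wild-type array 3 at P7, and the others 2.78 to 2.83, all near the bottom of the scale. Ccdc39 read 7.99 on heterozygous array 2 at P7, and the others 7.67 to 7.72. The Foxj1 genotype difference turned between the ages: the P0 difference minus the P7 difference was -0.61, and all heterozygous arrays were below all wild-type arrays at P0 and above them at P7. The limma test of this difference called 0 of the 12801 genes. Foxj1 was chosen by these genotype differences, and only members were examined for such a turn, so the flag restates that choice. Of all genes tested, 4.85% lay below wild type without overlap at P0, 2.2% above it at P7, and 0.0469% did both.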

How the results depend on the processing

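The medians of the members kept their sign under every alternative run for P0, for the difference between the ages, for the change from P0 to P7 and for the array sets. Counts of members past the threshold at P0 and P7 restate the choice of members. At P0 the count of members past the threshold, 0 as reported, was 1 after quantile normalization (Ak7), 1 with the filter at the 60th percentile (Ak7, 3 members tested), 2 with the mean of all probe sets (Ak7 and Foxj1), 4 with the replicate block, 4 with the array set as a block and 0 to 1 without single arrays (Ak7 without wild-type array 3). At P7 it was 1 with the array set as a block (Foxj1). The P7 median of 0.03 was 0.18 in replicates 3 and 4 alone and -0.03 to 0.13 without single arrays. The median difference between the ages of -0.41 was -0.24 in replicates 1 and 2, -0.54 in replicates 3 and 4 and -0.52 to -0.32 without single arrays, the lowest without heterozygous array 1 at P0. Of the counts of 6 members higher at P7 and 5 lower in replicates 3 and 4, the 60th percentile left 3 and 3, since it left 3 to test; the second count was 2 after quantile normalization, for a cause not tested, and 3 to 5 without single arrays. For the other motile cilia genes the P0 count of 0 was 1 after quantile normalization (Lrrc23), 2 with the mean of all probe sets (Fank1 and Lrrc23), 1 without probe sets named _x_ or _s_ (Fank1), 3 with the replicate block, 4 with the array set as a block and 0 to 1 without single arrays; at P7 it was 2 with the array set as a block (Gas8 and Myb). Their P7 median of 0.07 was 0.020 in replicates 1 and 2 and 0.12 in replicates 3 and 4, and their median difference between the ages of -0.20 was -0.16 with the mean of all probe sets and -0.27 in replicates 3 and 4. Their count of 32 past the threshold between P0 and P7 was 56 of 107 with no filter and 10 of 16 with the filter at the 60th percentile. The Foxj1 difference between array sets, 0.0068, was -0.0098 to 0.030 without single arrays, so it has no settled sign. Where no cause is named, the cause was not tested. The replicate block moved no other count of members by over 1.5 times; that of members past the threshold between P0 and P7 was 8 with it. Blocks and single sets could not be fitted for the difference between array sets, and the middle part of the description code was not used as a block for the change with age. Signals near the bottom of the scale limit Spag6 and Mns1.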
